A study of Homo sapiens with 4 samples.

Results

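The genes NSD1, NSD2, NSD3, KMT5A, KMT5B, KMT5C, EHMT1, EHMT2 and DOT1L, 9 of 20056 protein-coding genes, were described by the m6A regions that lie on them. A region was taken when its annotated transcript belonged to one of these genes, when the gene was named as its nearest start site, or when it overlapped the gene body on hg38. By this rule 18 of the 9900 deposited regions were taken. N6-methyladenosine (m6A) is adenosine methylated in RNA, and it was located with an m6A antibody followed by sequencing (m6A-seq). The cells were H1, an established human embryonic stem cell line, and carried the wild-type genotype. The name of the deposited set calls them primed. The labels listed 2 libraries of antibody-recovered RNA and 2 of input RNA, all from total RNA of H1 cells, with no other treatment named.

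The deposited data were positions only, so no level, height, depth or value per library stood behind a region. Replicate error could not be computed, and absence of a region does not show absence of m6A. RNA levels were not in these files either, so low methylation and low RNA cannot be told apart. Of 6 stem cell marker genes, SALL4 held 2 exonic regions and SOX2 held 1, while POU5F1, NANOG, LIN28A and DNMT3B held no exonic region. NANOG met 1 region over its gene body. Such positions do not measure whether a marker is expressed.

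These enzymes attach methyl groups to lysines of histones. The NSD family writes mono- and dimethylation of H3K36, a mark of active chromatin that also guides DNA methylation. KMT5A adds the first methyl group to H4K20, and its paralogs KMT5B and KMT5C extend it to di- and trimethylation. EHMT1 (GLP) and EHMT2 (G9a) act as a pair that deposits H3K9 mono- and dimethylation, which represses genes. DOT1L methylates H3K79 in transcribed genes and is the only member without a SET domain, the catalytic fold of the other enzymes.

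Of the 9 genes, 6 held at least 1 exonic region, meaning one whose centre was annotated to an exon of one of their own transcripts, against 12.8% of all protein-coding genes. KMT5B and NSD1 held 2 each, and KMT5C, EHMT1, DOT1L and NSD3 held 1 each, which made 8 exonic regions in all. Holding 2 or more was found in 1.22% of protein-coding genes. NSD2 had regions in introns alone, and KMT5A and EHMT2 had none of any kind. With any overlap of the gene body counted, 7 of the 9 had a region, against 30.2% of protein-coding genes. The median number of exonic regions was 1 over the 9 genes and 0 over all protein-coding genes, and the members' median gene body was 68646 bp against 24092.5 bp. The shares are over all protein-coding genes, whether or not their RNA was present in these cells, and the part of RNA level was not tested. Since the members were chosen with earlier results of these data known, these counts are given without a test.

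**Figure D1:**
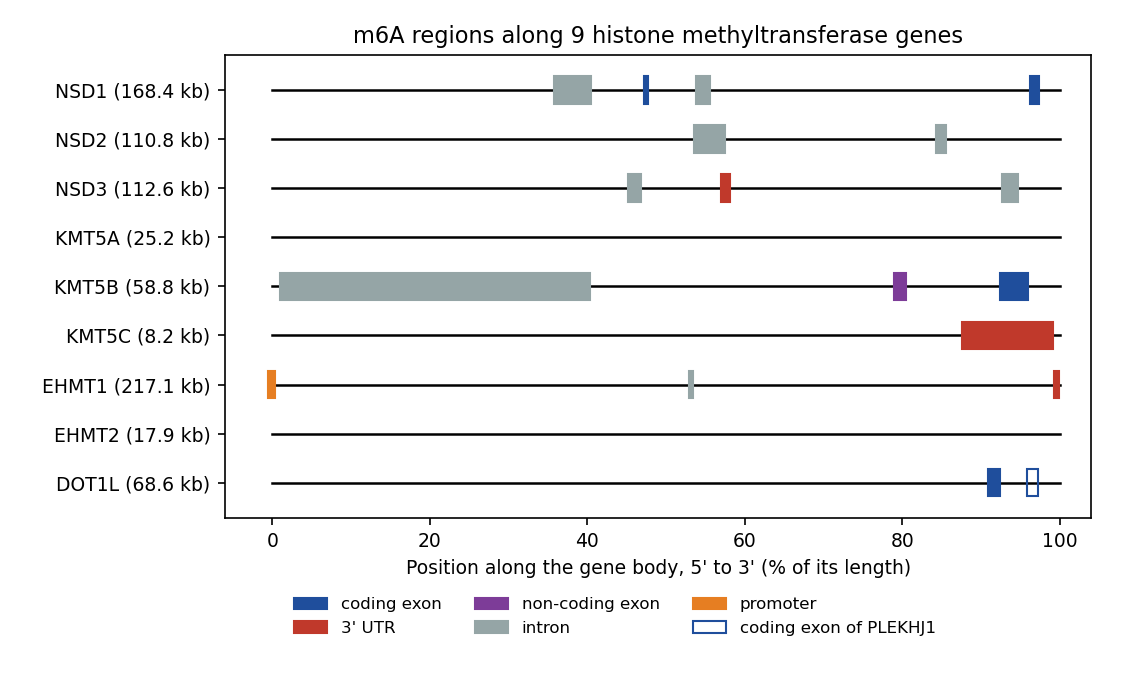
Each line is one gene drawn from its 5' end (0%) to its 3' end (100%) and each box is one m6A region, placed and sized to scale within that gene and coloured by the feature at its centre. Of the 8 exonic regions, 5 were centred in the final 10% of the gene, while the lines of KMT5A and EHMT2 are empty.

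The EHMT1 promoter was the only one of the members' listed promoters that lay under an m6A region. That region spanned chr9:137617900-137619835 (1936 bp), and 831 of its bases were inside the EHMT1 gene body. It contained all 300 bases of the RefSeq promoter window, which runs from 250 bases before the gene start to 50 after it. The EHMT2 window was under no region, and the nearest region began 2206 bp from it. Both windows are shown because they contrast the paired enzymes, EHMT1 with a region at its start and EHMT2 without one. The sequences (RefSeq, GRCh38.p14) run 5' to 3' on the gene's own strand, with the 50 bases from the gene start on in capitals. Some lower-case bases of the EHMT1 window lie in the body of ARRDC1-AS1, a gene on the opposite strand. The EHMT1 window is chr9:137618755-137619054 on the plus strand and the EHMT2 window is chr6:31897649-31897948 on the minus strand.
EHMT1: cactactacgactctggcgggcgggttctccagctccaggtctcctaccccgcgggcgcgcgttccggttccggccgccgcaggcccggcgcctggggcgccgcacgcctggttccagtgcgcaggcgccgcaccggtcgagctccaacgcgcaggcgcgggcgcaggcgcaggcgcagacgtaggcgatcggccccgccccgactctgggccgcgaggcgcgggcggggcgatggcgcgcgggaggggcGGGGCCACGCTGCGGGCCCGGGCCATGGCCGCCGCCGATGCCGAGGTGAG
EHMT2: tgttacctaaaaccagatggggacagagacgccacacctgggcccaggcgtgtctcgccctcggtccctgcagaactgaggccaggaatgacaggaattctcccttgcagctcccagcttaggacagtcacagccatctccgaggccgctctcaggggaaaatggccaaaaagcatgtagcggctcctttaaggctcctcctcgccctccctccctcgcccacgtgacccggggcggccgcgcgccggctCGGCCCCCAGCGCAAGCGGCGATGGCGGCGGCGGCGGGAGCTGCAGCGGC
The EHMT1 window was 79.3% G and C with 51 CpG dinucleotides, and the EHMT2 window was 66.7% G and C with 25. The medians over 22199 promoter windows of protein-coding genes were 62.3% and 21. The letters GGAC, the core of the motif where m6A is usually placed, were searched on both strands. They did not occur in the EHMT1 window and occurred 3 times in the EHMT2 window, 2 of them on the gene's strand. They were found on either strand in 89.9% of windows and on the gene's strand in 69.3%. In the 50 bases from the gene start on, they were found on the gene's strand in 19.8%. Neither of these genes had the letters in those 50 bases, whereas 1 KMT5A window, under no region, did. Those of the EHMT2 window thus lay before the gene start. Of the members' 14 windows, 10 had the letters on either strand. The EHMT1 window is only 300 of the 1936 bp of its region, and the rest was not searched.

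A region over a promoter window was seen for 6.17% of 15843 protein-coding genes with such a window. The promoter table listed 14 windows for 7 of the members; NSD3 and DOT1L had no entry. The EHMT1 region also overlapped ARRDC1-AS1, a long non-coding RNA gene on the opposite strand whose body covers chr9:137615332-137618895, next to the EHMT1 start. Its annotation named a promoter of the EHMT1 transcript NM_024757, and the nearest start site, 28 bp from its centre, was that of ARRDC1-AS1. The deposited regions carry no usable strand, so RNA of the 2 genes cannot be told apart there. The promoter region was not counted as exonic.

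The NSD genes write H3K36 methylation, and NSD1, the gene mutated in Sotos syndrome, held the most regions of the 9 genes. Its gene body occupies chr5:177131798-177300213 on the plus strand and held 4 regions, 2 in coding exons and 2 in introns. Its introns were numbered on the transcript NM_172349 and its exons on NM_022455, so the 2 numberings do not form 1 series. From 5' to 3', a region of 7981 bp at chr5:177191951-177199931 was centred in intron 4 of 23. The next, of 850 bp at chr5:177211357-177212206, was centred in exon 5 of 23. A region of 3116 bp at chr5:177222364-177225479 followed in intron 6 of 23. The last, of 1734 bp at chr5:177293936-177295669, was centred in exon 23 of 23, 5410.5 bp before the 3' end of the gene.

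The first 3 NSD1 regions therefore lay close together around the middle of the gene, with gaps of 11425 and 10157 bp, and the last stood 68456 bp further on. The exon 5 region was among the narrowest, since 8.21% of coding-exon regions were as narrow or narrower. Both intronic centres fell in repeats, an L2c element and an AluSx element. Regions covered 8.12% of the NSD1 gene body, against a median of 7.05% (quartiles 2.36 and 19.7%) over the 6057 protein-coding genes that met a region. Protein-coding genes were split into 5 equal groups by gene body length. In the longest group, to which NSD1 belongs, 5.91% met at least 4 regions and 3.04% held at least 2 exonic ones.

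NSD2, the enzyme encoded in the Wolf-Hirschhorn critical region and activated by translocation in multiple myeloma, had no exonic region. Its gene body, chr4:1871393-1982192 on the plus strand, met 2 intronic ones. A region of 4493 bp at chr4:1930668-1935160 was centred in intron 5 of 8 of NM_133334, a shorter transcript of the gene. A region of 1460 bp at chr4:1964796-1966255 was centred in intron 18 of 21 of NM_001042424, in an L1M4c repeat. The NSD2 centres lay 55.5 and 85.0% of the way along the gene. Together the regions covered 5.37% of its body, and 24.1% of genes in its length group met at least 2 regions.

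NSD3, which is amplified in some breast and lung cancers, held its single exonic region in the 3' UTR of a short transcript in the middle of the gene. The gene body is chr8:38269704-38382271 and runs on the minus strand by the order of its introns. The region, of 1270 bp at chr8:38316899-38318168, was centred in exon 10 of 10 of NM_017778, whereas the longer NSD3 transcript NM_023034 has 23 introns. Short NSD3 transcripts are known to encode a form without the catalytic SET domain. The region also lies within the span of NM_023034, so which transcript carried it cannot be told from positions. The centre lay 57.5% of the way along the gene body and 47829.5 bp before its 3' end. Of the 8 exonic regions, the NSD1 region in exon 5 was the only one farther from the 3' end of its gene. The remaining NSD3 regions were intronic: 1862 bp in intron 5 of 23 at chr8:38329598-38331459, and 2306 bp in intron 22 of 23 at chr8:38275671-38277976, in an AluJo repeat.

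Thus NSD1, NSD2 and NSD3, all in the longest group of genes, met 4, 2 and 3 regions and held 2, 0 and 1 exonic ones. In that group 18.7% of genes held an exonic region and 50.1% met a region anywhere. A region centred in the last exon of a long transcript was annotated in NSD1 and in neither NSD2 nor NSD3.

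The KMT5 enzymes act in sequence on H4K20 and ranged from no region to 3. KMT5A, which places the first methyl group and is degraded in S phase, met no region over chr12:123384132-123409353. The nearest one lay 13734 bp beyond the 3' end of the gene, at chr12:123423087-123430516, in intron 1 of 2 of the non-coding transcript NR_130703, with RILPL2 as the nearest start site. In its length group 13.6% held an exonic region and 29.3% met one anywhere, so a gene without one is the common case there.

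KMT5B, which with KMT5C makes the higher H4K20 methylation states, held regions at both ends. Its gene body is chr11:68154863-68213648 on the minus strand. The first region from the 5' end was 23140 bp wide, at chr11:68189958-68213097, and was centred in intron 1 of 10 of NR_161380. It was the widest of the 18, and 94.5% of intronic regions were as narrow or narrower. Its upper end stopped 150 bp short of the nearest KMT5B promoter window, and its centre lay 11769 bp downstream of the nearest KMT5B start site.

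The exonic regions of KMT5B were near the 3' end. One of 943 bp at chr11:68166304-68167246 was centred in exon 10 of 10 of the non-coding transcript NR_161378, and one of 2087 bp at chr11:68157267-68159353 in exon 11 of 11 of NM_017635. They lay 79.7 and 94.1% of the way along the gene and 6950 bp apart. Both were thus in the last exon of the transcript named, though of different transcripts. The 3 regions together covered 44.5% of the gene body, well above the upper quartile of 19.7% among genes that met a region, and the wide intronic region made up 23140 of the 26170 covered bases. In its length group 1.55% of genes held at least 2 exonic regions.

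KMT5C, the paralog of KMT5B, is the shortest gene of the 9, with a body of 8246 bp at chr19:55339876-55348121 on the plus strand. It met 1 region, of 961 bp at chr19:55347093-55348053, centred in the 3' UTR in exon 9 of 9 of NM_032701. The centre was 548 bp before the 3' end. In its length group 10.6% of genes held an exonic region and 21.4% met one anywhere. KMT5B and KMT5C thus both carried a region in a last exon, while KMT5A carried none.

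EHMT1 and EHMT2 form the H3K9 methylating pair, and all 3 regions of the pair were on EHMT1. EHMT1, whose loss causes Kleefstra syndrome, is the longest of the 9 genes at 217123 bp, chr9:137619005-137836127 on the plus strand. Besides the promoter region shown above, it met a region of 1222 bp at chr9:137733841-137735062 in intron 4 of 26 of NM_001354263, at an L1MB3 repeat. Its exonic region, of 1302 bp at chr9:137834514-137835815, was centred in the 3' UTR in exon 27 of 27 of NM_024757. That centre lay 962.5 bp before the 3' end and 99.6% of the way along the gene. The first and last regions were separated from the middle one by 114005 and 99451 bp, and the 3 covered 1.55% of the gene body.

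EHMT2 occupies 17940 bp at chr6:31879759-31897698 on the minus strand and met no region. The closest, of which the nearer end was 2456 bp upstream of the EHMT2 start, was at chr6:31900154-31900997 and was annotated as a promoter with C2, a complement gene, as the nearest start site. EHMT1 is in the longest of the 5 length groups and EHMT2 in the middle one, where regions anywhere over the gene body were met by 50.1 and 29.3% of genes, so gene body length moves with this contrast and its part in it was not tested.

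DOT1L, the H3K79 methyltransferase, held its regions at the 3' end. Its body is chr19:2163933-2232578 and runs on the plus strand by the order of its exons. A region of 1116 bp at chr19:2226281-2227396 was centred in exon 27 of 28 of NM_032482, 91.6% of the way along the gene. A second, of 1031 bp at chr19:2229682-2230712, began 2285 bp further on and was wholly inside the DOT1L gene body. HOMER gave its centre to exon 6 of 6 of NM_001300836, a transcript of PLEKHJ1, which lies on the minus strand and overlaps the end of DOT1L. It was therefore not counted as a DOT1L exonic region, and which of the 2 RNAs carried it cannot be told apart without strand. In the length group of DOT1L, 13.8% of genes held an exonic region and 36.1% met one anywhere.

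Across the 9 genes the exonic regions lay mostly at the 3' end, as they did in other genes. Of the 8, 6 were in the last exon of the transcript named, against 67.6% of 2658 exonic regions of multi-exon transcripts of protein-coding genes. The exceptions were exon 5 of 23 in NSD1 and exon 27 of 28 in DOT1L. A last exon of the named transcript need not lie at the end of the gene. Among the 6, the NSD3 region was centred 57.5% of the way along its gene and the KMT5B non-coding exon region 79.7%. The median position was 92.5% of the way along the gene body for the 8 regions and 83.8% for 2450 exonic regions with an assigned strand. In the final 10% were 5 of the 8, against 40.4% of those 2450. Past 80% of the way along lay the same 5 of the 8, against 55.2%, so the contrast depends on the cut. Genes without a promoter entry, NSD3 and DOT1L among them, got a strand only through a region late in exon or intron order and near a gene end. For such genes the rule itself favours 3' positions, and their part in these values was not separated. The 8 intronic regions had a median position of 53.9%, against 57.3% for 4025 intronic regions. A repeat lay at the centre of 5 of the 8, against 54.7% of all intronic regions, a share near the background.

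Exonic regions were narrow and intronic ones varied. The 8 exonic regions were 850 to 2087 bp wide with a median of 1193 bp, against 1293 bp for exonic regions of all protein-coding genes. Intronic regions of the 9 genes were 1222 to 23140 bp wide with a median of 2711 bp, against 2102 bp (quartiles 1193 and 5526 bp) for all intronic regions. Of the 18 regions, 12 were up to 2 kb wide.

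**Figure D2:**
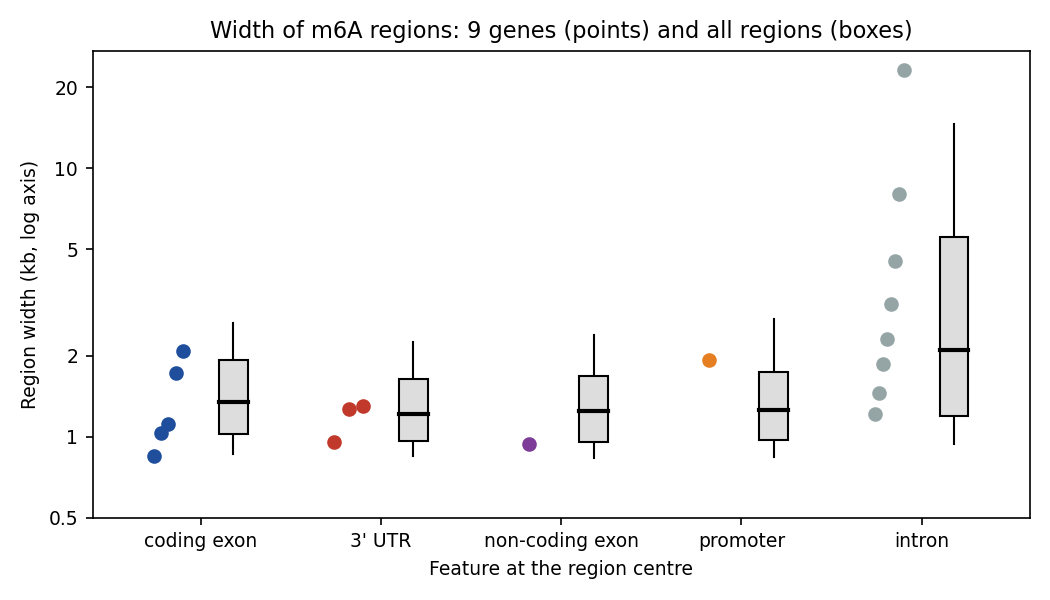
Points are the 18 regions on the 9 genes, the PLEKHJ1 exon inside DOT1L included under coding exon, and boxes are all deposited regions of the same feature (median, quartiles, and lines from the 10% to the 90% quantile), with width in kb on a log axis. The KMT5B intronic region of 23140 bp stands above the other points, and the coding-exon and UTR points lie near their boxes.

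Naming by the nearest start site gave 13 of the 18 regions to another gene. The deposited gene name was the member for 5 regions and for 1 of the 8 exonic ones, the exon 5 region of NSD1. Over all protein-coding genes it was the host of 58.6% of 2841 exonic regions. The region in the last exon of NSD1 was named RAB24, both exonic regions of KMT5B were named CHKA, and that of KMT5C was named COX6B2. The 3' UTR regions of EHMT1 and NSD3 were named MIR602 and PLPP5, and both DOT1L regions MIR1227. HOMER takes that name from the nearest annotated start site, whichever gene the exon belongs to.

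**Figure D3:**
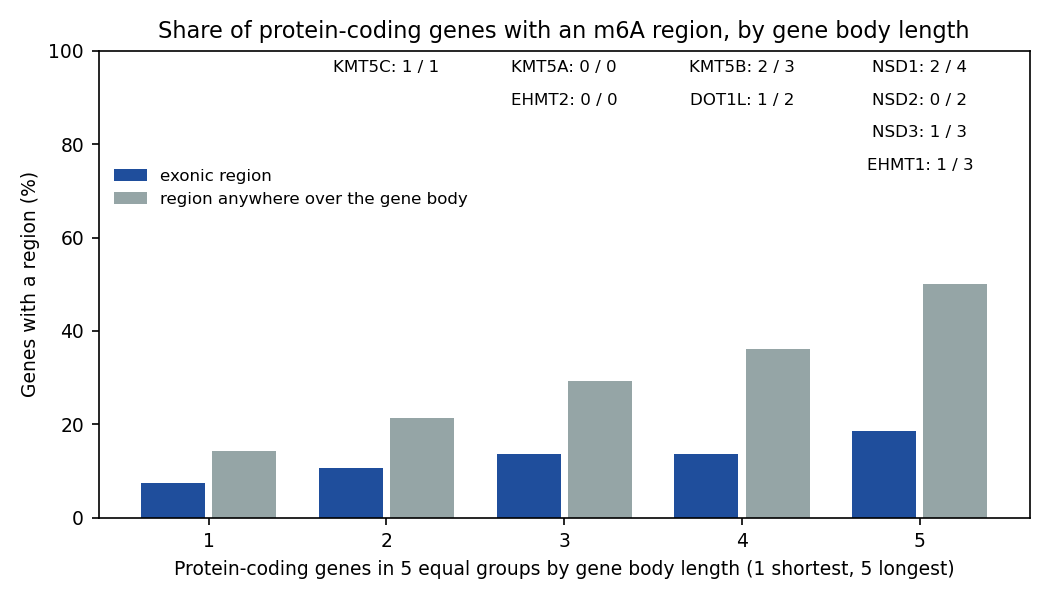
Bars give the percentage of protein-coding genes with an exonic region (left bar) or with a region anywhere over the gene body (right bar) in each of 5 groups of gene body length, and the text above gives each of the 9 genes as its exonic regions / regions over its body. The shares were 18.7 and 50.1% in the longest group, which holds NSD1, NSD2, NSD3 and EHMT1.

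Genes of related enzymes and their partners were counted from 5 lists. Of all protein-coding genes, 12.8% held an exonic region and 30.2% met a region over the gene body. The median gene body in the lists was 39783 to 97621 bp, against 24092.5 bp over all protein-coding genes. The parts of gene length and of RNA level in the counts below were not tested. Of 20 genes listed as other histone lysine methyltransferases, 10 held an exonic region, 11 met one over the gene body and 9 had neither. The list includes KMT2E and SETD5, each with an exonic region, and enzyme activity was not checked for any listed gene. KMT2C, KMT2B and KMT2D, which methylate H3K4, held 2 each, and KMT2A held 1 in exon 27 of 36. EZH1 and EZH2, the catalytic subunits of Polycomb complex PRC2, and SETD7 held none. Regions of KMT2C were in exons 36 and 38 of 59, those of KMT2B in exons 3 and 28 of 37, and those of KMT2D in exons 34 and 54 of 54, the last of these being the final exon.

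Among 14 demethylases that remove H3K9, H3K36 or H4K20 methylation, 3 held an exonic region and 6 met one over the gene body. KDM3B, an H3K9 demethylase, held 2, in exons 7 and 8 of 24. KDM4D held 1 in exon 3 of 3 and KDM2B 1 in exon 23 of 23, while JMJD1C, KDM1A and KDM2A held none. Of 9 partners of EHMT1 and EHMT2 or of H3K9 methylation, 1 held an exonic region and 4 met one over the gene body. ATF7IP, which stabilises the H3K9 methyltransferase SETDB1, held 1 in exon 2 of 15, and the heterochromatin proteins CBX1, CBX3 and CBX5 held none. Of 9 partners of DOT1L or of elongation complexes, 2 held an exonic region and 3 met one over the gene body. MLLT1 held 1 in the 3' UTR and AFF4 1 in exon 11 of 21. AFF1 held no exonic region but met 3 regions over the gene body, while EAF1 and ELL met none.

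Of 15 readers of H3K36 and H4K20 methylation, MSH6, a mismatch repair protein, held 1 exonic region in exon 2 of 8. BARD1, which binds unmethylated H4K20, held 1 in exon 4 of 11. BRPF1, DNMT3A and DNMT3B held no exonic region, though BRPF1 and DNMT3A each met 2 regions over the gene body. In this list 11 met a region over the gene body and 2 an exonic one, the widest gap between these counts in the 5 lists. Its exonic share of 13.3% was near the 12.8% of all protein-coding genes. The shares with an exonic region ranged from 11.1 to 50% over the 5 lists. Those with a region over the gene body ranged from 33.3 to 73.3%, beside 30.2% of all protein-coding genes. No test was made of these lists.

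**Figure D4:**
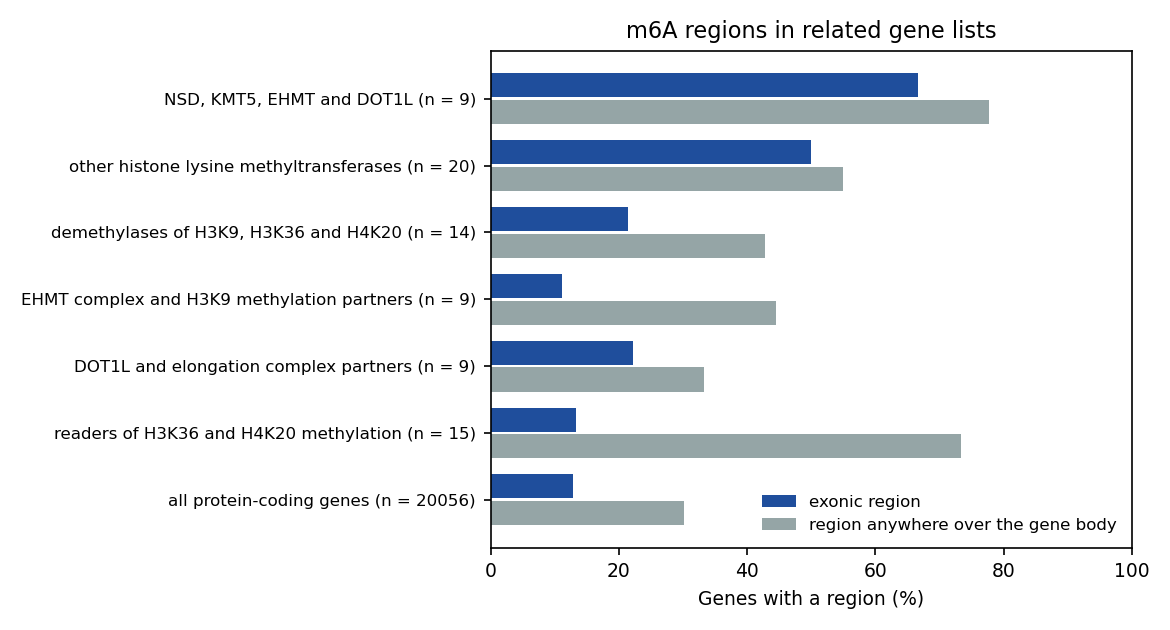
Bars give the percentage of genes with an exonic region (upper bar) or a region anywhere over the gene body (lower bar) for the 9 genes, for 5 lists of related genes and for all protein-coding genes, with the number of genes in parentheses. The 9 genes and the other histone lysine methyltransferases have the longest upper bars, and all protein-coding genes stand at 12.8 and 30.2%.

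The genes most like NSD1 and KMT5B were taken as those with 2 exonic regions, 223 outside the 9, and the closest gene body length. For NSD1 these were SLCO5A1, AKAP9 and ARHGAP39, which were within 483 to 2768 bp of its length and met 2, 3 and 3 regions over the gene body, against 4 for NSD1. For KMT5B they were CFLAR, CENPF and ZNF37A, within 1738 to 2829 bp of its length, with 3, 5 and 3 regions over the body, against 3 for KMT5B.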

How the data were processed

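The authors deposited 9900 m6A peaks as start and end coordinates (bp), with HOMER annotation of the same peaks on hg38 per the file headers. Per the submitters' processing notes, bedtools 2.30.0, MACS2 2.2.7.1, SAMtools 1.6, HISAT2 2.2.1, Trim Galore 0.6.7 and HOMER were used; their roles and settings were not recorded there. The file name calls the set intersected, without saying of what. The peak score was 0 throughout and was not used. The labels do not say whether libraries of a kind came from separate cultures, and their depth is unknown.

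Annotated transcripts were matched without version to RefSeq genes of GRCh38.p14 (8523 of 8585, 99.3%). A region was exonic when HOMER put its centre in an exon, coding or not, and overlap with a gene body meant 1 bp or more. Strand came from RefSeq promoters for 7 members and from exon or intron order for NSD3 and DOT1L, a rule that gave the promoter strand for 999 of 1002 regions. As a check that the code ran, 200 simulated regions were built from the same gene list used for matching, and all 200 were recovered. Their outcome was fixed by that construction, so they do not test how well HOMER annotations or overlapping genes were matched. Python 3.11.15, pandas 2.3.3 and SciPy 1.17.1 were used.

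No test was run, since there were no values per library. Members and lists were chosen with earlier results of these data known. Each list is illustrated by at most 4 genes with an exonic region, ordered by regions and then bases, and at most 3 without, in alphabetical order. NSD1 and KMT5B tied for the most exonic regions, so likeness was taken for both. Neighbouring genes (RAB24, CHKA, COX6B2, MIR602, MIR1227, PLPP5, PLEKHJ1, ARRDC1-AS1, RILPL2, C2) were named after their values were seen. Motifs inside regions, stop codons and proteins were not analysed here.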

Additional observations from a re-analysis of the deposited data

How the results depend on the processing

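The number of members with an exonic region was 6, and the number counted was between 4 and 7 under the 8 alternatives. Of these, leaving out regions that overlap 2 gene bodies was chosen after seeing the data. Naming by the nearest start site gave 4 of the 9, beside 25.7% of protein-coding genes. Any overlap of the gene body gave 7 of the 9, beside 30.2%. The count of 8 exonic regions was 18 with any overlap of the gene body, 17 with at least 50% of the region inside it, 5 with naming by the nearest start site and 5 with regions of at least 1 kb. It was 7 to 9 under the others. The first 3 of these settings also count introns, and the last drops the KMT5C region and 1 each of NSD1 and KMT5B. The share of protein-coding genes, 12.8% (95% exact binomial interval 12.3 to 13.3%, counting error only), moved with them to 30.2% (any overlap), 28.5% (at least 50% inside), 25.7% (nearest start site), 14.4% (promoters and transcript ends added), 10.4% (up to 2 kb), 9.93% (at least 1 kb) and 11.8% (regions over 2 gene bodies left out). Merging regions less than 2 kb apart changed none of these values. Of 56 counts for the 7 genes with a region, 36 stayed within 1.5 times and 20 moved by more; KMT5A and EHMT2 had no region that an alternative could have counted. NSD2 had 2 regions by overlap. No paired analysis was possible because the 1 deposited set has no values per library, and no replicate could be left out for the same reason.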
